A study of Rattus norvegicus with 10 samples.

Results

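Genes of the fibrillar collagen and collagen VI matrix, 10 in all, were followed in a rat hepatic stellate cell line with and without overexpression of miR-146a. They were 5 chains of fibrillar collagens (Col1a1, Col1a2, Col3a1, Col5a1 and Col5a2), the collagen VI chains Col6a2 and Col6a3, Col14a1 of the fibril-associated collagens, the crosslinking enzyme gene Lox and the procollagen processing gene Pcolce. Every probe set annotated with exactly 1 symbol out of these 10 names was taken, which gave 18 probe sets, 2 for each of 8 genes and 1 each for Col3a1 and Pcolce, out of 31099 on the array; no probe set with several symbols held a member. All 18 were above the lowest deposited value on at least 1 array and were among the 27520 probe sets tested. Each gene was read from its probe set with the highest mean, and the other probe set is given where it differed in its call.

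HSC-2 is a Wistar rat cell line of stellate cells, the vitamin A-storing cells of the liver that turn into myofibroblasts, here grown in high-glucose medium with serum. Total RNA of 5 lines was hybridised to Affymetrix arrays at passage 42 and at passage 43, giving 10 arrays. The 2 control lines were the untransfected cells and a line carrying a scrambled control sequence, which the series text names GFPscr. The other 3 lines, S1, S4 and S5, were transfected clones overexpressing rno-miR-146a, so the miRNA and the origin of each line from 1 clone cannot be told apart. All lines shared the HSC-2 background, and no label describes a vector, a promoter, a treatment or whether the scrambled line is 1 clone. The labels do not say whether the passages of a line came from separate cultures. P-values between lines therefore measure only the spread between these arrays, which may be technical. In RNA from whole cultures, fewer cells of a type and less RNA per cell cannot be told apart.

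Fibrillar collagens are secreted as procollagens, trimmed at their ends and assembled into the banded fibrils that give scar tissue its strength. Collagens I and III are the main fibrils of the fibrotic liver, collagen V sits within fibrils and helps to start them, collagen XIV lies on their surface, and collagen VI forms separate beaded microfilaments near cells. Activated stellate cells are a principal source of this matrix in injured liver. miR-146a is a miRNA known for repressing adaptors of Toll-like and interleukin receptor signalling.

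The miRNA that the clones overexpress is shown with its paralogue because both mature forms carry the same seed. Both sequences are from RefSeq (GRCr8), printed 5′ to 3′ with the seed (bases 2 to 8) in capitals.
rno-miR-146a-5p, chr10:28350053-28350074, minus strand: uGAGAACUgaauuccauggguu
rno-miR-146b-5p, chr1:255144874-255144897, plus strand: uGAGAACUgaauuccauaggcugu
The mature miRNAs were not analysed here, since the arrays measured longer transcripts.

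Of the 10 genes, 5 had a RefSeq promoter entry: Col1a2, Col5a1, Col5a2, Col6a3 and Pcolce. The letters TATAAA of the TATA box were searched, with CCAAT, and with GGGCGG of the GC box, on both strands in the 250 bases before each start. No match of one motif overlapped a match of another in these windows. Stretches from Col1a2 and Col6a3 are shown because one is a chain whose level hardly varied between lines and the other a chain whose level did. TATAAA and the reverse complement of CCAAT are in capitals.
Col1a2, chr4:33518307-33518426, plus strand, bases 250 to 131 before the start: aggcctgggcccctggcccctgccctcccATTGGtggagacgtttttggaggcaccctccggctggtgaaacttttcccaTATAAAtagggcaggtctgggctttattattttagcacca
Col6a3, chr9:98886959-98887208, minus strand, the 250 bases before the start: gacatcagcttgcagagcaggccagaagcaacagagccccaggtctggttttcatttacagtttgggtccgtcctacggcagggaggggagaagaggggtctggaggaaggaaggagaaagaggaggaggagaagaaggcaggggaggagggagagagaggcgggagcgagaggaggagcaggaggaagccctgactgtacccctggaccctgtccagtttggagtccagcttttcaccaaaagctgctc
TATAAA was found in 1 of the 5 windows (Col1a2, bases 170 to 165 before the start), against 13.1% of 27457 promoters of the same length. CCAAT was found in 1 of the 5 (Col1a2, minus strand, bases 221 to 217), against 34.3%, and GGGCGG in 2 (Col5a1 and Pcolce), against 32.4%. None of the 3 motifs was in the Col6a3 window, which says only that these letters are not there.

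The labelled cell type was checked against markers. Of 13 stellate cell and myofibroblast markers, 1 was at the lowest deposited value of 20 on all arrays (Lrat, which esterifies retinol for storage in quiescent stellate cells) and 5 of the other 12 were under 100 intensity units on both arrays of every line, among them Gfap at 28.06 to 38.07. Vim lay between 21124 and 24794 on the 10 arrays, Timp1 between 2591 and 3879, Pdgfrb between 719.8 and 1666, and Des between 86.36 and 187. Under 100 in the same way were 6 of 7 tested hepatocyte markers, 3 of 5 macrophage and leukocyte markers, and 4 of 5 endothelial markers, with Alb at 30.65 to 38.41, Ptprc at 20 to 21.04 and Pecam1 at 25.09 to 29.57. The exceptions were Ttr at 149.9 to 207, Cd14 at 452 to 716, Clec4f at 98.72 to 111 and Tek at 99.82 to 198. Of the portal fibroblast and mesothelial markers, Thy1, Fbln2 and Wt1 reached the highest values, and the list is given beside collagen VI.

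**Figure D1:**
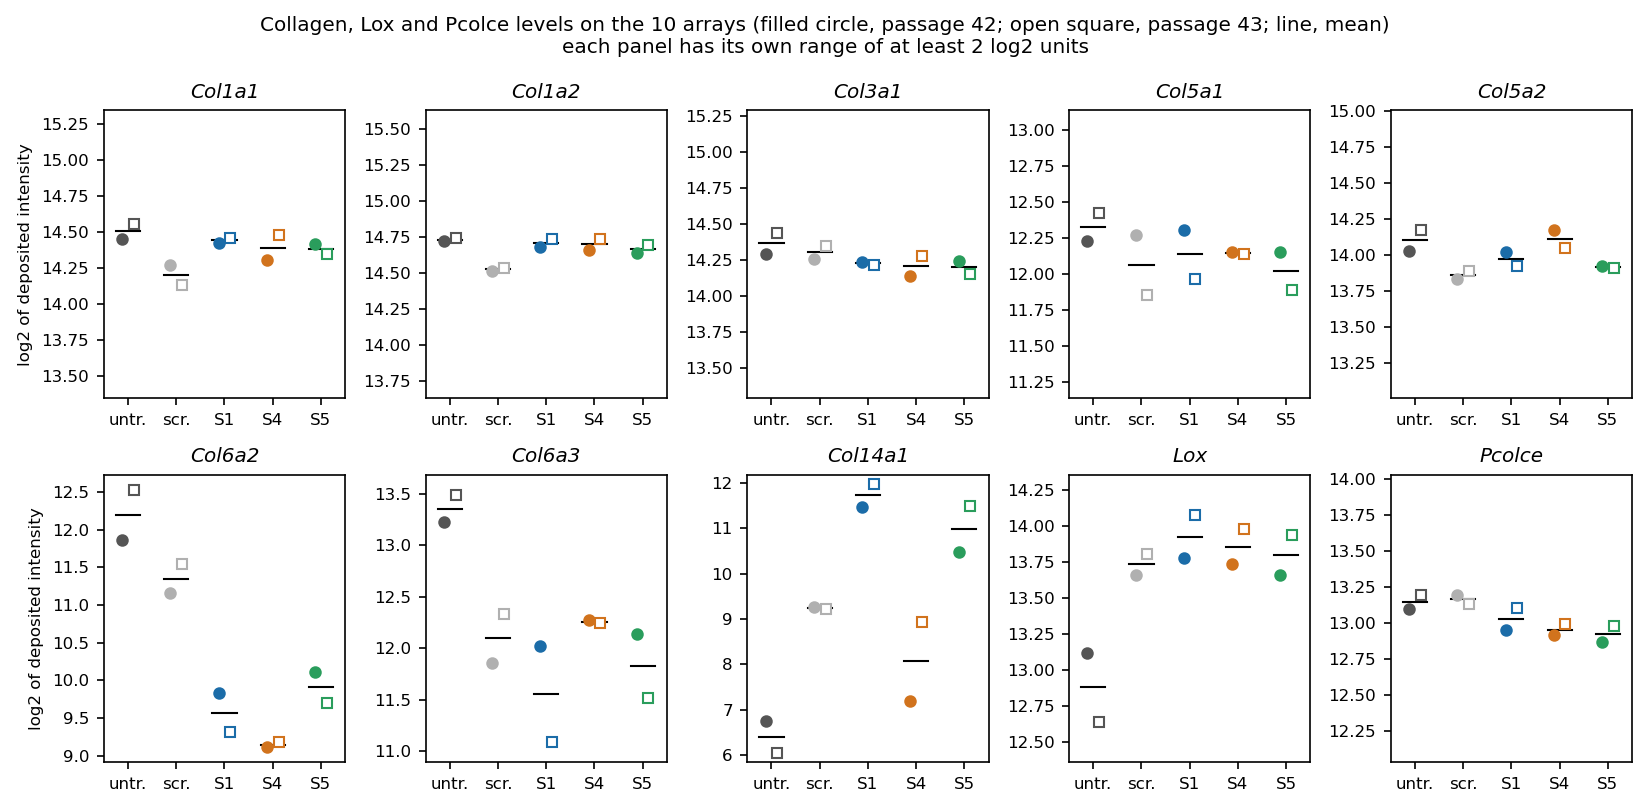
Log2 intensity of the 10 genes on each of the 10 arrays, with the 5 lines side by side and the 2 passages as separate points. Each gene has its own panel with its own range, so heights and spreads are to be read from the axis labels. Col1a1, Col1a2, Col3a1 and Col5a2 are nearly level, Col6a2 is lower in all 6 clone arrays, and Col14a1 has the widest range.

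Transcripts of the fibrillar chains were abundant, and their array intensities were nearly level across the 5 lines. None of the 5 genes, and none of their 9 probe sets, passed the test in any clone against either control line (limma, Benjamini-Hochberg adjusted p under 0.05 over 27520 probe sets). Over all probe sets tested, 1.37% to 2.38% were called in each direction in these contrasts. No call among 5 genes is near that share. Col1a1, Col1a2 and Col3a1 lay near the upper end of the deposited values, and whether intensities there show differences in RNA in full was not tested. The dimmer Col5a2 probe set differed more than the brighter one, at 0.49 against 0.25 (log2) for S4 against the scrambled line. The dimmer probe sets of Col1a1, Col1a2 and Col5a1 did not differ more in every contrast. Col3a1, the single chain of collagen III, lay at 20062 and 22207 intensity units in the untransfected line at passages 42 and 43 and at 19593 and 20793 in the scrambled line. The clones lay at 19301 and 18994 (S1), 18029 and 19811 (S4), and 19388 and 18176 (S5). Its highest array was 1.23 times its lowest. All clone arrays were below the untransfected arrays, as for 13.7% of all probe sets tested, and overlapped the scrambled ones.

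Collagen I is built of Col1a1 and Col1a2 chains. Col1a1 was read at 22328 and 24084 in the untransfected line, 19760.2 and 17936 in the scrambled line, and in the clones at 21941 and 22501 (S1), 20191 and 22766 (S4), and 21796 and 20792 (S5). Col1a2 was read at 27008 and 27458, 23461 and 23779.7, 26239.5 and 27292, 25904 and 27371, and 25572 and 26505 in the same order. For both chains the scrambled arrays were the lowest 2 of the 10, and the clone arrays lay between the controls or overlapped the untransfected ones. The 6 clone arrays were above both scrambled arrays for 13.1% of all probe sets tested.

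Collagen V regulates the start and the diameter of collagen I fibrils. Col5a2 lay at 16673 and 18459.6 in the untransfected line, 14603 and 15119 in the scrambled line, and in the clones at 16589 and 15506 (S1), 18454 and 16928 (S4), and 15514 and 15348 (S5). Col5a1 lay at 4801 and 5498, 4948 and 3702, 5076 and 4004, 4555 and 4510.2, and 4569.6 and 3798 in that order. The Col5a2 clone arrays were all above the scrambled arrays, as for 13.1% of all probe sets tested, and overlapped the untransfected ones. The Col5a1 arrays of S4 and S5 were below both untransfected arrays while those of S1 overlapped them.

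The intervals, each for a single probe set, reflect only the spread between these arrays. The 9 probe sets belong to 5 genes, most of them read by 2, so counts of probe sets are not counts of separate genes. No share over all probe sets is set beside the unadjusted counts. Against the untransfected line the 9 fibrillar probe sets differed in S1 by -0.28 to -0.01 on the log2 scale, with 95% confidence intervals spanning -0.62 to 0.23. In S4 they differed by -0.18 to 0.05 (intervals -0.60 to 0.39) and in S5 by -0.30 to -0.05 (-0.72 to 0.15). Set against the scrambled line, the same probe sets differed by -0.08 to 0.24 for clone S1 (-0.34 to 0.51), -0.09 to 0.49 for clone S4 (-0.33 to 0.83) and -0.10 to 0.18 for clone S5 (-0.46 to 0.52). The lowest adjusted p over these 6 contrasts was 0.139, and at an unadjusted p under 0.05 there were 1 of 9 probe sets for S1 and 4 for S4 against the scrambled line and 0 in the other 4 contrasts. The scrambled line differed from the untransfected one by -0.45 to -0.06 (-0.79 to 0.18), with 9 of 9 values below 0 and none past the test (lowest adjusted p = 0.124, 5 unadjusted). The median difference of all probe sets tested in that contrast was 0. Without the filter on dim probe sets Col1a2 was called lower there (-0.21, adjusted p = 0.0475).

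Col6a2, which encodes a chain of the collagen VI microfilament, fell in all 3 clones against both control lines. The untransfected line stood at 3720.0 and 5906 intensity units and the scrambled line at 2287 and 2978. The clones stood at 908 and 636 (S1), 553 and 582 (S4), and 1102 and 834 (S5). All 6 clone arrays were below all 4 control arrays, and it was the only one of the 10 genes whose clone and control arrays did not overlap. Of all probe sets tested, 3.44% had clone arrays below and 4.06% above all control arrays.

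Against the untransfected line Col6a2 was 6.17-fold lower in S1 (log2 -2.62, SE 0.27, limma adjusted p = 0.00237), 8.27-fold lower in S4 (-3.05, adjusted p = 0.00121) and 4.89-fold lower in S5 (-2.29, adjusted p = 0.00464), all with 2 arrays a line. In comparison with the scrambled line it was 3.43-fold lower in S1 (-1.78, adjusted p = 0.0116), 4.60-fold lower in S4 (-2.20, adjusted p = 0.00458) and 2.72-fold lower in S5 (-1.45, interval -2.07 to -0.82, adjusted p = 0.0296). Of the 10 genes it was the only one called lower in all 6 contrasts, a pattern that 0.243% of the tested probe sets showed; 0 genes were higher in all 6 (0.411%). The 3 clones share their control arrays, so these contrasts are not independent of each other. The 2 control lines differed by -0.84 (interval -1.47 to -0.22), which did not pass (adjusted p = 0.113).

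Single arrays decided some of these calls. The S1 and S4 calls against the untransfected line held without any 1 of the 10 arrays. The S5 call against that line was lost without S5 passage 43 (adjusted p = 0.0650). In the contrasts with the scrambled line the S4 call was lost without S4 passage 42 (adjusted p = 0.0568), the S1 call without scrambled passage 43 or S1 passage 43 (up to 0.117), and the S5 call without either array of the scrambled line, S4 or S5 (up to 0.212). The log2 difference stayed negative in every case, between -3.38 and -1.24. Fits of only the 2 lines compared left none of the 6 calls (adjusted p from 0.0780 to 0.167), and without the filter on dim probe sets the S1 and S5 calls against the scrambled line were lost (0.0601 and 0.104).

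The second Col6a2 probe set was far dimmer, at 87.05 to 239 in the controls and 60.84 to 78.84 in the clones, so its 6 clone arrays were also below all 4 control arrays. It differed from the untransfected line by -1.29 in S1, -1.32 in S4 and -1.07 in S5, with adjusted p of 0.0631, 0.0683 and 0.114. With passage as a block these 3 were called (0.0173, 0.0176 and 0.0345). From the scrambled line it differed by -0.56, -0.58 and -0.33 (lowest adjusted p = 0.442). So its sign was that of the brighter probe set in all 7 contrasts between lines, with smaller values and no call without the block.

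Col6a3, which encodes another collagen VI chain, was highest in the untransfected line, with the scrambled line and the clones at lower values. It lay at 9547 and 11466 in the untransfected line and at 3711 and 5176 in the scrambled line. The clones lay at 4174 and 2184 (S1), 4942 and 4848 (S4), and 4500.1 and 2927 (S5). Every clone array was below the untransfected arrays, as for 13.7% of all probe sets tested. The scrambled arrays lay 1 within and 1 just above the range of the clones.

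Col6a3 fell 3.47-fold in S1 (log2 -1.79, SE 0.33, adjusted p = 0.0250) and 2.88-fold in S5 (-1.53, adjusted p = 0.0477) against the untransfected line, and S4 differed by -1.10 (interval -1.85 to -0.34, adjusted p = 0.129). Both calls were lost without the filter on dim probe sets (0.0898 and 0.131) and in fits of only the 2 lines compared (0.202 and 0.194). The S1 call was lost without either untransfected array, S1 passage 43 or either S4 array (up to 0.156), and the S5 call without any 1 of 8 arrays, all but those of S1 (up to 0.249). Its second probe set differed by -1.62, -0.92 and -1.33 and passed in no clone (lowest adjusted p = 0.0553, or 0.0333 for S1 with passage as a block).

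From the scrambled line Col6a3 differed by -0.54 in S1, 0.16 in S4 and -0.27 in S5 (lowest adjusted p = 0.515). The scrambled line itself differed from the untransfected line by -1.26 (interval -2.01 to -0.50), with adjusted p = 0.0650, or 0.0445 with passage as a block and 0.0485 without either S1 array. The difference between the control lines had the same sign as those of the clones from the untransfected line. The summed intensity of the stellate cell and myofibroblast markers was lowest in the scrambled line, which Col6a3 was not, at 30569.8 to 33538.4 against 52357.4 to 55202.8 in the untransfected line and 43381.6 to 52394 in the clones. Vim, Tagln and Acta2 made up most of that sum. From the untransfected line the scrambled line differed in Tagln by -2.08 and in Acta2 by -2.89 (limma adjusted p = 0.00182 and 0.000171). Vim differed by -0.06, Pdgfrb by -0.41 and Timp1 by -0.14, while Des and Hand2 went the other way, by 0.64 and 0.57. The part of these markers in the differences between the control lines was not tested.

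Col6a1, the remaining major collagen VI chain and not one of the 10, was chosen for mention after its values were seen. It lay at 2632 to 8305 in the controls and 936 to 1332 in the clones. It was called lower in 5 of 6 clone contrasts, with S5 against the scrambled line at adjusted p = 0.0526. The portal fibroblast and mesothelial markers, 6 of 8 measured, did not all move with Col6a2. Their summed intensity, made up mostly of Thy1 and Fbln2, was 12990 to 15452.4 in the controls, 4233 to 6924 in S1, 6238 to 8872 in S4 and 4606 to 7211 in S5. Thy1 ranged from 3346 to 5739.6 in the controls and 85.57 to 439.9 in the clones. Fbln2 ranged from 7406 to 9479.6 and from 2909.7 to 7463, which overlap, and Wt1 ranged the other way, from 415 to 858 in the controls and from 834 to 1235 in the clones. Eln lay at 73.06 to 93.63, Msln at 60.06 to 288 and Entpd2 at 34.52 to 50.76 over the 10 arrays, and none of the 6 was at the floor. Their part in the collagen VI result was not tested.

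**Figure D2:**
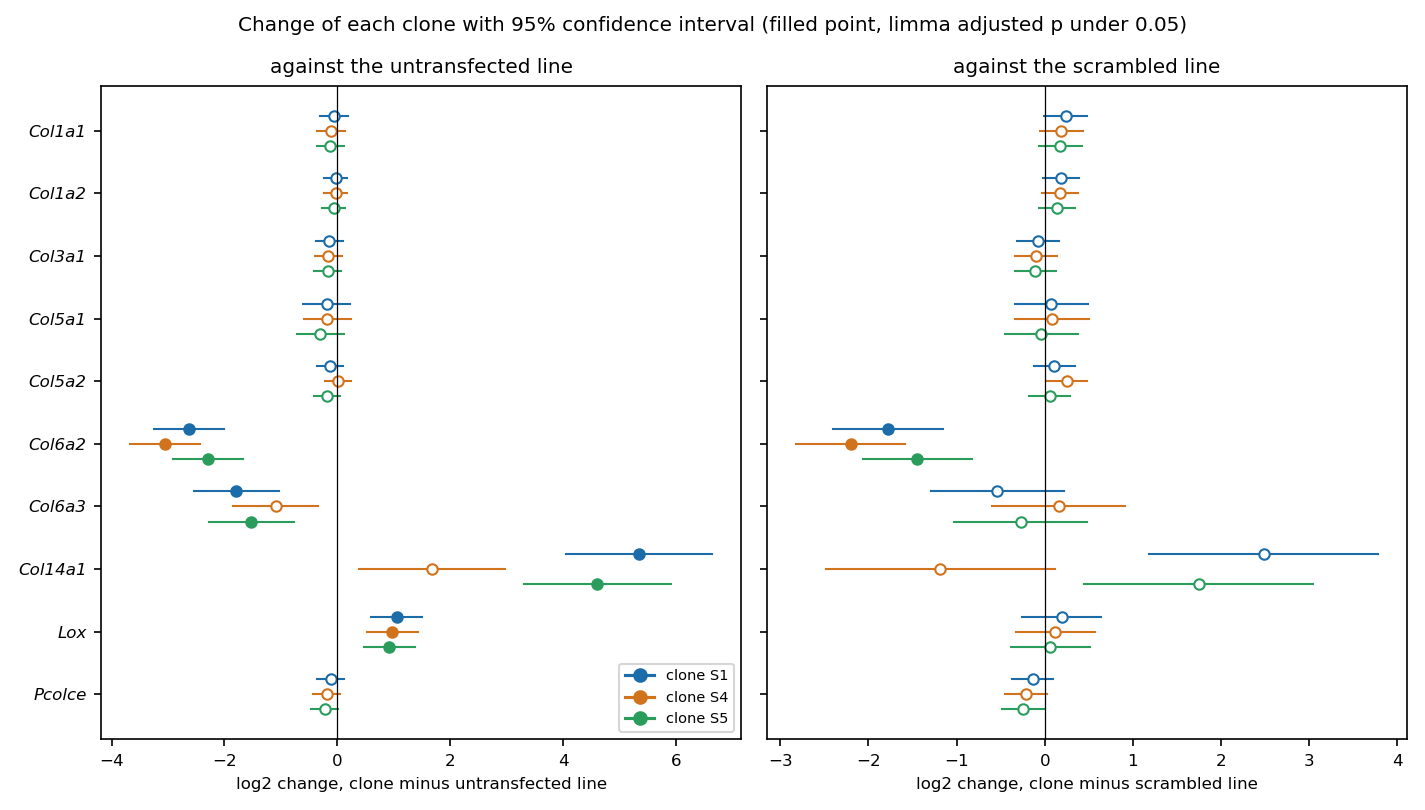
Log2 difference of each clone from the untransfected line and from the scrambled line for the 10 genes, with 95% confidence intervals from the limma fit. Col6a2 lies below 0 in all 6 contrasts, the fibrillar chains lie near 0, and Col14a1 and Lox lie above 0 mainly against the untransfected line.

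Col14a1 had the widest range of the 10 genes, and its values spread among the clones as well as between the controls. It was read at 107 and 65.52 in the untransfected line and at 617 and 599.5 in the scrambled line. S1 stood at 2856 and 4048, S4 at 146 and 490.4, and S5 at 1433 and 2898. The S1 and S5 arrays were above all control arrays, whereas both S4 arrays lay between the 2 control lines. The untransfected values were near or below the median probe set of an array (97.74 to 103.7).

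Against the untransfected line Col14a1 rose 40.7-fold in S1 (log2 5.35, SE 0.56, interval 4.05 to 6.64, adjusted p = 0.00264) and 24.4-fold in S5 (4.61, adjusted p = 0.00558), and it was 7.27-fold higher in the scrambled line too (2.86, adjusted p = 0.0275). S4 differed by 1.68 (interval 0.38 to 2.98, adjusted p = 0.172). The S5 call was lost without untransfected passage 43 or S5 passage 43 (up to 0.0749). In fits of only the 2 lines compared no Col14a1 call held (adjusted p from 0.0719 to 0.132). The call of the scrambled line was lost without untransfected passage 43 or any array of the scrambled line or S1 (up to 0.163).

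From the scrambled line S1 differed by 2.48 (interval 1.19 to 3.78), with adjusted p = 0.0521, or 0.0265 with passage as a block and 0.0278 without either S4 array. S5 differed by 1.74 (adjusted p = 0.171) and S4 by -1.18 (adjusted p = 0.372). The second Col14a1 probe set, at 52.31 to 408 over the 10 arrays, was called higher in S1 and S5 against both lines: 2.60 (adjusted p = 0.00298) and 2.15 (0.00770) against the untransfected line, and 1.79 (0.0141) and 1.34 (0.0481) against the scrambled line. S4 passed in neither probe set. The second probe set differed by 0.81 between the scrambled and the untransfected line (adjusted p = 0.141, or 0.0297 with passage as a block).

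The difference between clones was tested directly. S4 was 3.67 lower than S1 on the log2 scale (adjusted p = 0.171), and the F test over the 3 clones gave an adjusted p of 0.337. The second probe set gave 0.217 in that F test, or 0.0301 with passage as a block, and S4 against S1 gave -2.10 (0.114, or 0.0232 with the block). Between pairs of clones 0 of the 10 genes passed, against 0.0327% of all probe sets for S4 against S1, 0.0145% for S5 against S1 and 0.0254% for S5 against S4. At an unadjusted p under 0.05 the counts were 1, 0 and 2, and the F test over the clones called 0 of 10 against 0.0327% (1 unadjusted).

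Lox, the oxidase that starts covalent crosslinks between collagen and elastin molecules, was lowest in the untransfected line. It lay at 8902 and 6370.0 there and at 12951 and 14331 in the scrambled line. The clones stood at 14032 and 17283 (S1), 13621 and 16113 (S4), and 12917 and 15724 (S5). All 8 arrays of the other lines were above the untransfected arrays, and the scrambled arrays lay within the range of the clones. The 6 clone arrays were above both untransfected arrays for 12.3% of all probe sets tested.

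Lox rose 2.07-fold in S1 (log2 1.05, SE 0.19, adjusted p = 0.0269), 1.97-fold in S4 (adjusted p = 0.0373) and 1.89-fold in S5 (adjusted p = 0.0462) against the untransfected line, and 1.81-fold in the scrambled line (adjusted p = 0.0440). From the scrambled line the clones differed by 0.19, 0.12 and 0.07 (lowest adjusted p = 0.737), with intervals from -0.38 to 0.64. Each of the 4 calls was lost without any 1 of 9 arrays, all but untransfected passage 42 (up to 0.247). They were also lost without the filter on dim probe sets (0.0815 to 0.114) and in fits of only the 2 lines compared (0.213 to 0.279). The second Lox probe set gave 0.96, 0.94, 0.85 and 0.89 for the same contrasts, none of which passed (lowest adjusted p = 0.0755).

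Pcolce, whose product enhances the removal of procollagen ends, was nearly level. It lay at 8737 and 9381 in the untransfected line, 9362 and 8969.9 in the scrambled line, and in the clones at 7898 and 8781 (S1), 7729 and 8126 (S4), and 7447 and 8052 (S5). The clone arrays were below all control arrays except for S1 passage 43, which lay above untransfected passage 42. The clones differed from the untransfected line by -0.23 to -0.12 and from the scrambled line by -0.24 to -0.14, and none passed (lowest adjusted p = 0.288).

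By count, against the untransfected line, 2 of the 10 genes were higher and 2 lower in S1, beside a background of 2.06% of probe sets called higher and 2.32% lower. In S4 there were 1 and 1 (background 1.82% and 1.71%) and in S5 there were 2 and 2 (1.68% and 1.95%). Against the scrambled line 0 were higher and 1 lower in each clone, beside a background of 2.38% and 1.81% (S1), 2.27% and 1.37% (S4), and 1.99% and 1.45% (S5). The scrambled line had 2 higher and 0 lower than the untransfected line (2.23% and 3.87%). In all 3 clones together, 1 gene was higher (Lox, background 1.11%) and 1 lower (Col6a2, 1.20%) against the untransfected line, and 0 higher (1.45%) and 1 lower (Col6a2, 0.956%) against the scrambled line. By array ranges, the 6 clone arrays lay above both untransfected arrays for 2 genes (background 12.3%) and below them for 3 (13.7%). They lay above both scrambled arrays for 3 genes (13.1%) and below them for 2 (12.2%). With passage as a block the S1 count against the scrambled line became 2, and the count of the scrambled against the untransfected line became 3. The median of the 10 differences was -0.12, -0.14 and -0.18 for S1, S4 and S5 against the untransfected line, beside medians of -0.01, 0.00 and 0.00 over all probe sets tested. With the scrambled line as the control the medians were 0.09, 0.10 and 0.01, beside -0.01, 0.00 and 0.00.

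With the line as the replicate, the 3 clones were set against the 2 control lines. None of the 10 genes passed (background 0.898%; limma on 5 line means), and 2 had an unadjusted p under 0.05. Col6a2 was 4.70-fold lower (log2 -2.23, SE 0.33, interval -3.09 to -1.38, adjusted p = 0.0701) and Pcolce differed by -0.19 (interval -0.36 to -0.02, adjusted p = 0.281). Col14a1 differed by 2.45 with an interval from -1.12 to 6.02 (adjusted p = 0.477), Col6a3 by -0.84 (0.423) and Lox by 0.55 (0.393). The 9 fibrillar probe sets differed by -0.12 to 0.09 (lowest adjusted p = 0.423). Without scrambled passage 42, Col6a2 alone was called (adjusted p = 0.0493), and with line as a random block over all arrays it was called with adjusted p = 0.00153. That random-block fit put the correlation between passages of a line at 0.0485. It therefore counted the arrays of a line nearly as separate replicates, and its p-value does not have the line as the replicate. Without the whole scrambled line, Col6a2 differed by -2.65 and Lox by 0.98. That fit left 1 control line, so the spread between lines came from the clones alone.

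**Figure D3:**
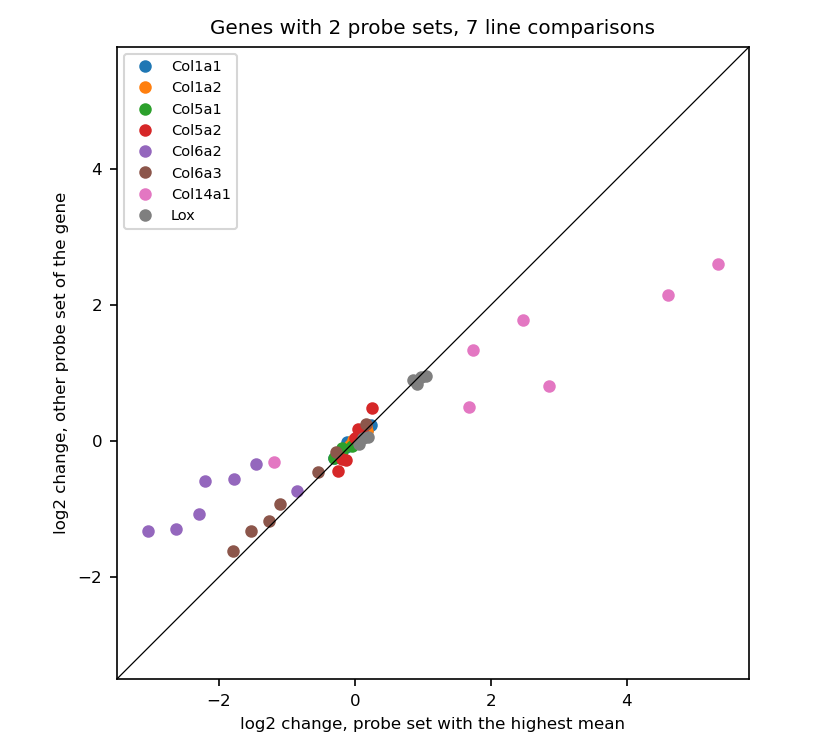
Log2 differences between lines from the brighter probe set (x axis) against the other probe set (y axis) of the 8 genes with 2 probe sets, 7 contrasts a gene. Points of most genes lie near the diagonal, while the dimmer probe sets of Col6a2 and Col14a1 show smaller differences.

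Both probe sets of a gene gave the same sign in all 7 contrasts between lines for 6 of the 8 genes, and in 6 of 7 for Col1a2 and Lox. The largest disagreement in size was 2.74 on the log2 scale for Col14a1 and 1.73 for Col6a2. Calls differed more than signs: the brighter probe sets made 6 calls for Col6a2, 2 for Col6a3 and 4 for Lox where the other made 0, and for Col14a1 the counts were 3 and 4.

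Passage 43 against 42 was compared within each line. No gene passed the test of passage, and Col14a1, Col6a3 and Col6a2 held the largest differences between passages, while Col1a2 held the smallest. Col14a1 differed by -0.70 in the untransfected and -0.04 in the scrambled line, and by 0.50 in S1, 1.75 in S4 and 1.02 in S5. Col6a3 differed by 0.26 and 0.48 in the controls, and by -0.93, -0.03 and -0.62 in the clones. Col6a2 differed by 0.67 and 0.38 in the controls, and by -0.51, 0.07 and -0.40 in the clones. All 3 clones were on the other side of 0 from both controls for Col14a1 and Col6a3, and S1 and S5 were for Col6a2. These are the brighter probe sets. The second Col6a3 probe set had the same signs, the second Col14a1 probe set was at 0.23 in the untransfected line, on the side of the clones, and the second Col6a2 probe set was above 0 in all 5 lines (0.01 to 1.08).

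The difference of these passage changes between clones and controls passed for 0 of the 10 genes (background 0.0182%; limma), with 3 at an unadjusted p under 0.05. It was 1.46 for Col14a1 (interval 0.54 to 2.38, adjusted p = 0.453), -0.90 for Col6a3 (-1.55 to -0.25, adjusted p = 0.492) and -0.80 for Col6a2 (-1.31 to -0.30, adjusted p = 0.453). Over all 5 lines, passage called 0 of 10 (background 5.52%, 0 unadjusted). The largest size over the lines was Col14a1 at 0.50 (interval -0.24 to 1.24, adjusted p = 0.420).

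**Figure D4:**
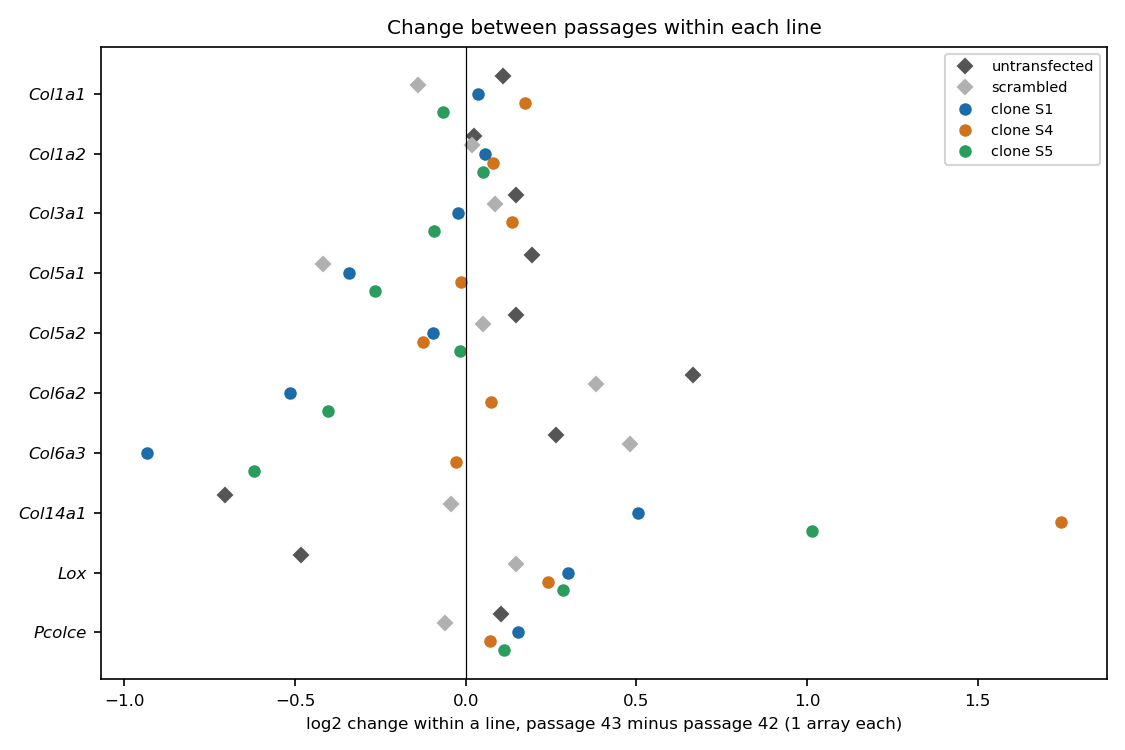
Log2 difference of passage 43 from passage 42 within each of the 5 lines for the 10 genes, 1 point a line with no error since each passage has 1 array. The clone points of Col14a1 lie above 0 and the control points below it, and for Col6a3 the sides are exchanged.

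Genes around these 10 were taken from lists of the collagen pathway, of which 57 of 70 genes were measured. In all 3 clones against both control lines only Pcolce2, a relative of Pcolce, passed each time, lower in every clone (0.243% of all probe sets tested). Its probe set is annotated PCOLCE2 and was matched without regard to case. It lay at 237 and 279 in the untransfected line, 159.9 and 141 in the scrambled line, and 37.93 to 49.73 in the clones. The 6 clone arrays were thus below all control arrays (3.44% of all probe sets), and below the array medians (97.74 to 103.7), not far above the floor of 20. Pcolce2 differed by -2.62 to -1.78 on the log2 scale (limma adjusted p from 0.000334 to 0.00151). The 17 measured genes for collagen folding and hydroxylation passed in no clone contrast (limma; 2 to 4 of them at an unadjusted p under 0.05), among them the chaperone Serpinh1 at 11157 to 12763 and the isomerase P4hb at 8507 to 10517.

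Of the 15 other fibrillar, fibril-associated and collagen VI chains measured, 2 were lower and 0 higher in each clone against the untransfected line, namely Col5a3 and Col6a1. Col5a3 was also lower in the scrambled than in the untransfected line (log2 -2.07, limma adjusted p = 0.00814). It passed in no clone against the scrambled line (lowest adjusted p = 0.135). Over all 57 genes, 2 were higher and 4 lower in S1 against that line, and 1 higher and 4 lower in each of S4 and S5, beside the background shares of 2.06% and 2.32%, 1.82% and 1.71%, and 1.68% and 1.95% given above. For the scrambled line the counts were 3 and 3, 4 and 3, and 2 and 3, beside 2.38% and 1.81%, 2.27% and 1.37%, and 1.99% and 1.45%. Among the 11 measured partners in fibril assembly, Fbn1, a microfibril gene, was higher in all 3 clones against the scrambled line, and among the 8 measured collagen receptors so was Itga11, a collagen-binding integrin subunit. Neither passed in any clone against the untransfected line, where Fbn1 differed by -0.44 to -0.20 and Itga11 by -0.84 to -0.68. Against the untransfected line the receptor kinase Ddr1 was higher and the integrin subunit Itga1 lower in all 3 clones. Neither passed in any clone against the scrambled line (limma, lowest adjusted p = 0.0712 and 0.129). Itga1 was also lower in the scrambled than in the untransfected line (-1.76). Fbn1, Itga11, Ddr1, Itga1, Col5a3 and Col6a1 were named after their values were seen.

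The genes most like the members whose line means had the widest and the narrowest range were sought by Pearson's r over the 10 arrays among 14366 probe sets, as a description without a test, since the arrays share lines. For Col14a1 these were Selenbp1 (r = 0.980, 614.4 to 1357 intensity units), Selenon (r = 0.929) and Tax1bp3 (r = 0.928). For Col3a1 (line means 0.17 apart on the log2 scale, although Col1a2 varied less over single arrays, with an SD of 0.08 against 0.09) they were Nudt4 (r = 0.937), Ucp3 (0.917) and Arhgap10 (0.912).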

How the data were processed

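Biotin-labelled total RNA of 5 HSC-2 lines at passages 42 and 43 was measured on Affymetrix arrays. The authors deposited linear intensities between 20 and 30192. RMA is the tool that the submitters' processing notes name, with no version. The planned tests were on log2 values, with the log2 to be taken if the table was linear. Of the values, 14.6% were exactly 20, a floor without order below it, and array medians lay between 97.74 and 103.7. Precision is limited by the number of arrays. The log2 of the intensities was tested with limma 3.58.1 (R 4.3.3) without further normalisation, with each line as a coefficient (residual degrees of freedom 5), on line means for clones against controls (3) and with line as a block for passage (4). P-values were adjusted by Benjamini-Hochberg over 27520 probe sets, after removal of 3522 that stayed at the floor on every array and of 57 array controls. Symbols came from the platform annotation, and all 18 member probe sets matched the GRCr8 gene table with the same symbol. By rule, related genes were named where called the same way in all 3 clones against both lines, which Pcolce2 alone met, and others were named after their values were seen, and likeness was taken over 10 arrays. Passage deviations of all 10 pairs of lines correlated at 0.136 to 0.648, so passage was taken to pair the arrays. The main contrasts between lines held no passage term and so left this pairing out. Fits with passage as a block are given where a call changed. The members and lists were chosen with earlier results of these data known. Other filters, normalisations, probe sets and fits, and each array left out, were tried.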

Additional observations from a re-analysis of the deposited data

How the results depend on the processing

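No direction of a called gene was turned by any alternative tried, but the number of the 10 genes called often moved. Without the filter on dim probe sets the counts against the untransfected line were 2 for S1, 1 for S4 and 2 for S5, and against the scrambled line 0 for S1 and 0 for S5, with 1 for the scrambled against the untransfected line; that gene was Col1a2, lower (adjusted p = 0.0475), and the calls of Col14a1 and Lox were lost (0.0921 and 0.103). Fitting only the 2 lines compared gave 0 in all 7 contrasts between lines. Reading the probe set with the largest SD lost every Lox call. It gave 3 for S1, 1 for S4 and 3 for S5 against the untransfected line and 1 for the scrambled line against it. For S1 against the scrambled line, passage as a replicate block gave 2, as did a highest value of at least 4 times the floor. Both settings gave 3 for the scrambled against the untransfected line, where Col6a3 was also called, lower. When line was a random block, the clones against the controls called 1 gene, Col6a2, and 1 with the replicate block as well. The correlation between passages of a line was 0.0485 and 0.21 in these fits, so arrays of a line counted largely as separate replicates. Leaving out 1 array (or, for clones against controls, 1 array or 1 line) gave 2 to 3 for S1, 1 to 2 for S4 and 0 to 3 for S5 against the untransfected line, 0 to 2, 0 to 1 and 0 to 1 against the scrambled line, 0 to 2 for the scrambled against the untransfected line and 0 to 2 for the clones against the controls. The upper end of the range for the clones against the controls came from leaving out the scrambled line. That left 1 control line, with no spread of its own. The replicate block changed no call of the 18 probe sets beyond those given beside the results. Quantile normalisation moved none of these counts by more than 1.5 times. Calls of Col6a2, Col6a3, Col14a1 and Lox all rest on 2 arrays a line and on the shared spread of all 5 lines.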

Other observations

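The 2 control lines differed in collagen-related genes that the comparisons of clones did not lead with. Of the 57 measured genes of the lists, 2 were higher and 7 lower in the scrambled than in the untransfected line (limma adjusted p under 0.05), beside 2.23% higher and 3.87% lower over all probe sets tested. Itga11, a collagen receptor subunit, stood at 4485 and 5928 in the untransfected line and 1036 and 672 in the scrambled line (log2 -2.63, adjusted p = 0.00175). Itga1, another such subunit, stood at 165 and 203 against 47.29 and 61.46 (-1.76, adjusted p = 0.00148). Fbn1 stood at 9043 and 9832 against 4327 and 4387 (-1.11, adjusted p = 0.00380). Acta2, a smooth muscle actin gene, stood at 7715 and 9626 against 1124 and 1195 (-2.89, adjusted p = 0.000171), with the clones between 4682 and 6834. These 4 genes were picked for mention after their values were seen.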
